A study of Mus musculus with 8 samples.

Results

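Tight junctions seal the space between neighbouring epithelial cells. The 10 genes described here encode their best known colonic components: 2 claudins that form paracellular pores (Cldn2 and Cldn15), 5 claudins that seal the junction (Cldn3, Cldn4, Cldn7, Cldn8 and Cldn23), the membrane proteins occludin (Ocln) and junctional adhesion molecule A (F11r), and the scaffold ZO-1 (Tjp1). They were chosen by name, with earlier results of these data known. Each matched a single row of the 26008 gene rows deposited, and all 10 were among the 19127 genes with a mean of at least 10 normalized counts, which were the genes tested. They were measured by bulk RNA-seq in colon biopsies of 8 chimeric male mice, 1 library per mouse. Every recipient was a wild-type C57BL/6JRj mouse, lethally irradiated when 7 weeks old and grafted with bone marrow of male donors aged 9 to 11 weeks. The donors were Penk-/- for 4 mice, which lack the gene of the opioid peptide precursor proenkephalin, and Penk+/+ for the other 4, and the mice were examined from 18 weeks after the graft. Irradiation and grafting were therefore common to both groups, and the deletion was carried by the hematopoietic cells and not by the epithelium that makes the claudins. The comparison between the chimeras addressed whether enkephalins of immune origin bear on the transcripts of the epithelial barrier.

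The claudins are membrane proteins that span the lateral border of epithelial cells and bind their counterparts on the adjacent cell, so that the set of claudins a cell makes fixes which solutes pass between cells. Cldn2 forms a channel for small cations and water and is known from leaky epithelia, and Cldn15 forms a sodium-permeable channel in the intestine. Cldn3, Cldn4 and Cldn8 tighten the junction. Cldn7 is abundant along the lateral membrane of colonocytes, and Cldn23 is found in differentiated colonic epithelium. Occludin and junctional adhesion molecule A lie in the same strand-bearing membrane domain, and ZO-1 ties all of them to the actin cytoskeleton.

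The libraries held 33122556 to 50677005 reads, in overlapping ranges for both genotypes, and the 10 genes were covered by 1130 to 25344 reads per library. Penk itself did not separate the groups, with 453 to 616 normalized counts in Penk-/- and 473 to 636 in Penk+/+ chimeras, so that the labels could not be checked on it. The cells of the recipient carry an intact Penk in both groups. All 10 epithelial markers (Vil1, Krt8 and others) were detected in every library, with a summed level of 418628 to 565040 normalized counts in Penk-/- and 516232 to 606494 in Penk+/+ chimeras. The libraries of Penk-/- replicate 3 and Penk+/+ replicate 4 stood apart by the secretory gene Pbsn of the male accessory glands, with 105658 and 111024 normalized counts against 0 to 13425 in the other libraries. Log2 fold changes of members that moved without these 2 libraries are also given without them. So are the balance of pore-forming and sealing claudins and the relations of 7 members with the surface minus crypt score. Marker scores, claudin shares and ratios, and genes of the other lists are given with all mice only, and can also depend on these libraries.

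The promoters shown are those of Cldn2 and Cldn15, which make up the pore-forming class, and of Cldn3, the sealing claudin whose levels did not overlap between the genotypes. Each sequence holds the 250 bases before the annotated start site of the canonical transcript, read from the GRCm39 genome 5′ to 3′ on the + strand, from which all 3 genes are transcribed. Capitals mark the searched motifs found.
Cldn2 (chrX:138701230-138701479): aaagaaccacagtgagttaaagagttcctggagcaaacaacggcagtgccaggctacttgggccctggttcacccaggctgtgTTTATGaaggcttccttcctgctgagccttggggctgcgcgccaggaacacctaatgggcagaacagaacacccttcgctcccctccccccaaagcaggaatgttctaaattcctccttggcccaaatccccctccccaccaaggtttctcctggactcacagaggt
Cldn15 (chr5:136996416-136996665): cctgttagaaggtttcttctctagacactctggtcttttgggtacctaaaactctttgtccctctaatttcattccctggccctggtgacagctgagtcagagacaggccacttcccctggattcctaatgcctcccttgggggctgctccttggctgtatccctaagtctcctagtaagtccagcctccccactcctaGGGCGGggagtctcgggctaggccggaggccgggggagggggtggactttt
Cldn3 (chr5:135014818-135015067): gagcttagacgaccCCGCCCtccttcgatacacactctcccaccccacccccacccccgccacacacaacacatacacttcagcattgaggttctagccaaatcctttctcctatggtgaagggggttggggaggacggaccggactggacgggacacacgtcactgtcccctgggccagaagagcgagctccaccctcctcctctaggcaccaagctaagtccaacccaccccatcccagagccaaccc
Of the motifs searched on both strands, the Cldn2 window held 1 match to the CDX motif TTTATG, at -167 from the start site, which occurs in 10% of 21757 promoters of the same length. The Cldn15 and Cldn3 windows each held 1 GC box, GGGCGG, at -51 and -236, which occurs in 36.3% of promoters. In Cldn3 it is read from the opposite strand, as CCGCCC. None of the 3 windows held the TATA box TATAAA, the CDX motif TTTATT, the HNF1 motif GTTAAT, the HNF4 motif CAAAGTCCA or the E-box CAGGTG, which occur in 11.9, 17.6, 6.28, 0.372 and 17.7% of promoters, respectively. The Cldn15 window starts inside the gene, downstream of an alternative start.

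In the GRCm39 annotation Cldn3 and Cldn4 are neighbours on chromosome 5, separated by 39.3 kb and transcribed from opposite strands. Cldn3 (chr5:135015068-135016326, + strand), Cldn4 (chr5:134973973-134975788, - strand), Cldn8 (chr16:88357716-88360071, - strand) and Cldn23 (chr8:36291866-36293713, - strand) each consist of 1 exon. Cldn15 (chr5:136995470-137004712, + strand) has 7 separate exon blocks, Cldn7 (chr11:69852648-69858711, + strand) has 6 and Cldn2 (chrX:138701480-138712135, + strand) has 4. Ocln (chr13:100630334-100689535, - strand), F11r (chr1:171265092-171292958, + strand) and Tjp1 (chr7:64945898-65177529, - strand) have 12, 9 and 32.

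Levels of different genes were compared per kb of exon. The length used holds the exon bases of all annotated transcripts of a gene, so a gene that uses only part of them reads too low. Cldn3 and Cldn7 also share exon bases with genes of the opposite strand, as given below. On this scale Cldn7 was the most abundant of the 10 transcripts, at 9966 ± 1194 normalized counts per kb (mean ± SD over the 8 mice). Cldn3 followed at 6956 ± 1169 and Cldn8 at 5967 ± 800. The level per kb of Cldn7 exceeded that of Cldn3 in 8 of 8 libraries, and that of Cldn3 exceeded that of Cldn8 in 6 of 8. F11r, at 3556 ± 479 normalized counts per kb, and Cldn2, at 1939 ± 256, came next, each separated from its neighbours in the order without overlap. The last 5 places were held by Tjp1 (1148 ± 177), Cldn4 (1112 ± 344), Cldn23 (894 ± 197), Ocln (880 ± 151) and Cldn15 (867 ± 66.0 normalized counts per kb), and each of these overlapped the next in the order. The 7 claudins accounted for 97.1 to 97.9% of the summed level per kb of the 17 claudins in the table, so that the claudin pool of these biopsies was Cldn7, Cldn3 and Cldn8 for the most part, with Cldn2 as the main pore-forming member.

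No member passed an adjusted p below 0.05 between the genotypes (limma, Benjamini-Hochberg over all genes), as did 0% of the 19127 genes. At an unadjusted p below 0.05, 0 members were higher and 2 were lower in Penk-/- chimeras, Cldn3 and Tjp1, against 4.3% of all genes higher and 5.33% lower. The log2 fold change was positive for 3 members and negative for 7, whereas 48.9% of all genes tested had a negative one. The median was -0.10 against 0.01 over all genes tested. Epithelial genes vary together between mice, and nothing particular to the members is drawn from these counts of signs. Both pore-forming claudins had a positive log2 fold change and all 5 sealing claudins a negative one, although Cldn8 turned positive with quantile normalization, Cldn4 and Cldn8 when single mice were left out, and Cldn2 and 4 sealing claudins changed sign in the fit with a crypt base covariate. In a biopsy of whole tissue, fewer epithelial cells and less RNA of a gene per cell cannot be told apart.

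**Figure D1:**
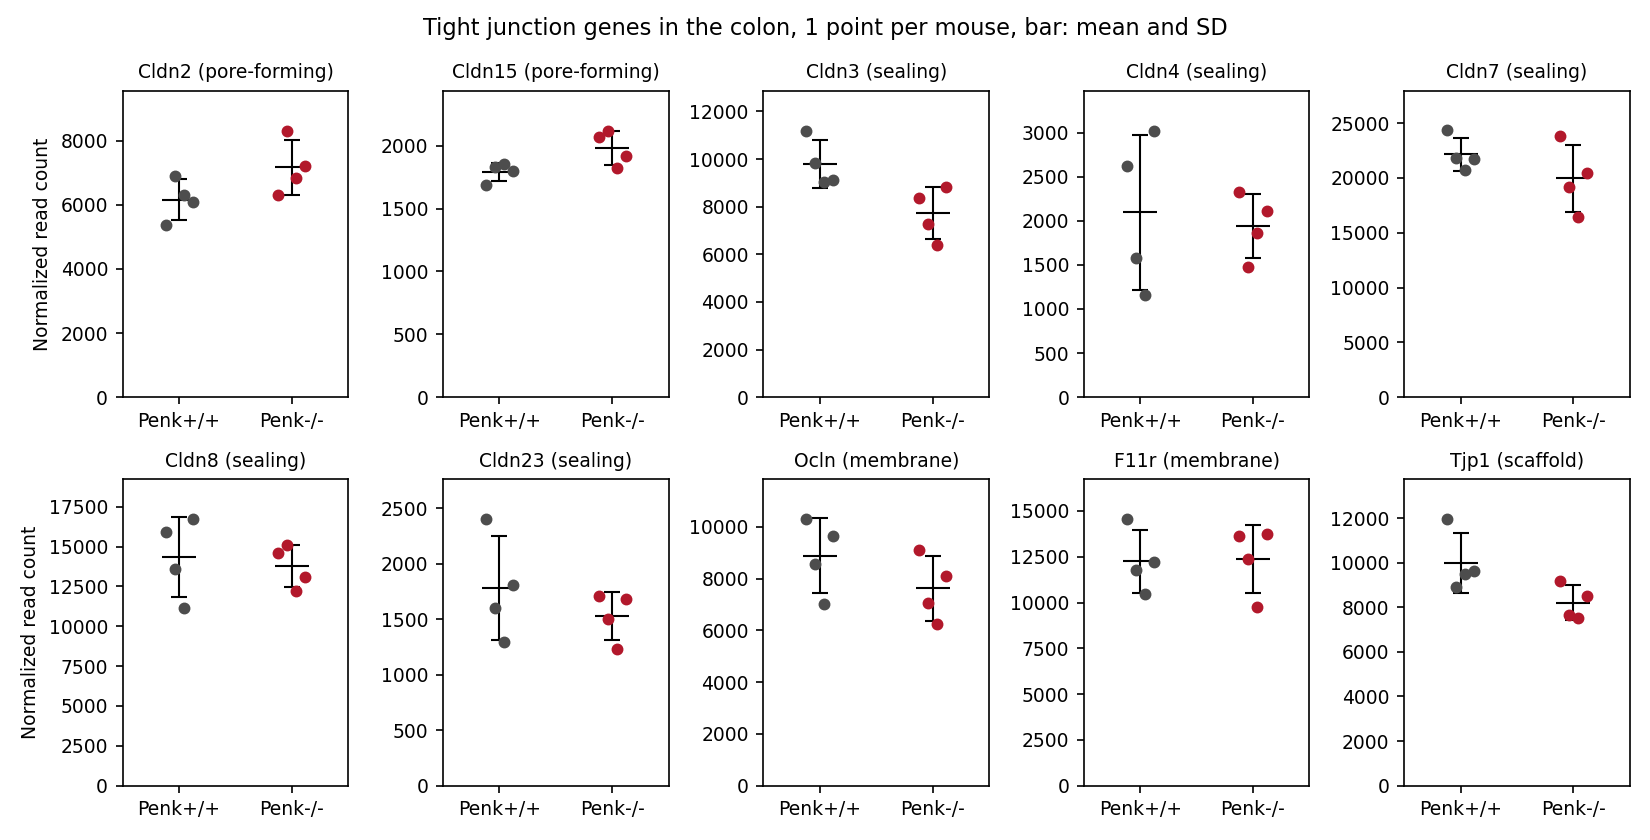
Normalized read counts (y axis, starting at 0) of the 10 tight junction genes in each mouse, by genotype of the graft (x axis). Points are mice, bars the mean and SD of 4 mice. The 4 Penk-/- mice lay below every Penk+/+ mouse for Cldn3 alone, between 6409 and 8815 against 9022 to 11200 normalized counts.

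Cldn2, the cation and water pore, had 6300, 8313, 6835 and 7219 normalized counts in Penk-/- replicates 1 to 4. In Penk+/+ replicates 1 to 4 it had 5360, 6896, 6306 and 6072. The mean was 7167 ± 852 against 6159 ± 635 (SD, n = 4 each), 16.4% higher, and the groups overlapped, with 2 Penk-/- mice above the highest Penk+/+ mouse. The log2 fold change was 0.22 ± 0.10 (SE, 95% interval -0.01 to 0.44) and did not pass the test (limma, p = 0.0579, adjusted p = 0.537, exact two-sided permutation p = 0.143).

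Cldn15, the sodium-permeable channel, had 2071, 2121, 1825 and 1918 normalized counts in Penk-/- and 1690, 1831, 1853 and 1798 in Penk+/+ chimeras. Of the Penk-/- mice, 3 lay above the highest Penk+/+ mouse and replicate 3 within the Penk+/+ range. The mean was 1984 ± 137 against 1793 ± 72.3, and the log2 fold change of 0.14 ± 0.066 (SE, 95% interval -0.00 to 0.29) did not pass the test (limma, p = 0.0551, adjusted p = 0.531, exact permutation p = 0.0857). Without the 2 libraries richest in Pbsn the log2 fold change was 0.18 (limma, 95% interval 0.02 to 0.35).

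Cldn3, a sealing claudin, was the only member whose groups did not overlap. It had 8378, 7283, 6409 and 8815 normalized counts in Penk-/- replicates 1 to 4. In Penk+/+ replicates 1 to 4 it had 11200, 9831, 9022 and 9122. All 4 Penk-/- mice lay below the lowest Penk+/+ mouse, as did 2.74% of all genes tested in this direction. The mean of 7721 ± 1086 was 0.788 times the 9794 ± 1004 of Penk+/+ chimeras, with a log2 fold change of -0.35 ± 0.11 (SE, 95% interval -0.60 to -0.10). The unadjusted p was 0.0110 and the adjusted p 0.402 (limma), and the exact permutation p was 0.0286, the smallest that 4 against 4 mice allow. With DESeq2 on recovered reads, which called 1.25% of genes, the adjusted p of Cldn3 was 0.145. Without the 2 libraries richest in Pbsn, its log2 fold change was -0.30 (limma, adjusted p = 0.479). The long non-coding gene Wbscr25 covers 72.0% of the exon bases of Cldn3 on the opposite strand, with a mean of 14.9 normalized counts, and the strand setting of the counting is not given in the sources used here.

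For the other 4 sealing claudins the groups overlapped. Cldn7, the most abundant of them, had 23815, 19150, 16464 and 20416 normalized counts in Penk-/- and 24320, 21796, 20686 and 21731 in Penk+/+ chimeras. For Cldn7, 3 Penk-/- mice lay below the lowest Penk+/+ mouse and replicate 1 near the top of the Penk+/+ range, with a log2 fold change of -0.16 ± 0.11 (SE, limma, adjusted p = 0.683). It was -0.08 without the 2 libraries richest in Pbsn and -0.07 without Penk-/- replicate 3 alone, and -0.25 without Penk-/- replicate 1. Part of its exon sequence, 15.7%, is also covered on the opposite strand by Elp5, which had a mean of 1148 normalized counts.

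Cldn8, which limits sodium leak in the distal colon, had 14585, 15123, 12236 and 13098 normalized counts in the Penk-/- mice, whereas the Penk+/+ mice had 15919, 13614, 11160 and 16728. The Penk-/- values of Cldn8 fell inside the Penk+/+ range, with a log2 fold change of -0.05 ± 0.13 (SE, limma, adjusted p = 0.938), or 0.085 without the 2 libraries richest in Pbsn. Cldn4, a sealing claudin that also acts on chloride passage, had 2327, 1479, 1864 and 2107 normalized counts in Penk-/- and 2625, 1576, 1155 and 3024 in Penk+/+ chimeras. Cldn4 was the most variable of the 10 between mice, and its log2 fold change of -0.02 ± 0.28 (SE, 95% interval -0.66 to 0.61) leaves a wide range for the difference (limma, adjusted p = 0.990). It was 0.20 without the 2 libraries richest in Pbsn. Cldn23 had 1228 to 1705 normalized counts in Penk-/- and 1292 to 2402 in Penk+/+ chimeras, the highest being Penk+/+ replicate 1. Its log2 fold change was -0.19 ± 0.18 (SE, limma, adjusted p = 0.778). It was -0.034 without Penk+/+ replicate 1, -0.09 without Penk-/- replicate 3, -0.33 without Penk+/+ replicate 3 and -0.07 without the 2 libraries richest in Pbsn.

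Tjp1, the scaffold ZO-1, was the other member with an unadjusted p below 0.05. It had 9187, 7630, 7500 and 8488 normalized counts in Penk-/- and 11955, 8919, 9498 and 9617 in Penk+/+ chimeras. Of the Penk-/- mice, 3 lay below the lowest Penk+/+ mouse, and replicate 1 lay within the Penk+/+ range. The mean was 8201 ± 790 against 9997 ± 1340, with a log2 fold change of -0.28 ± 0.10 (SE, 95% interval -0.51 to -0.05, limma, p = 0.0216, adjusted p = 0.450, exact permutation p = 0.0571). Without the 2 libraries richest in Pbsn the log2 fold change was -0.26 (limma, adjusted p = 0.578), so that 1 member, Cldn3, was then lower at an unadjusted p below 0.05 in place of 2 and 1, Cldn15, was higher in place of 0, against 4.69% of all genes lower and 4.38% higher in that fit.

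Ocln, occludin, had 9118, 7066, 6241 and 8087 normalized counts in Penk-/- and 10306, 8578, 7010 and 9654 in Penk+/+ chimeras. The groups overlapped and the log2 fold change was -0.22 ± 0.14 (SE, limma, adjusted p = 0.662), or -0.08 without the 2 libraries richest in Pbsn. With single mice left out it ranged from -0.13 without Penk-/- replicate 3 to -0.33 without Penk+/+ replicate 3, and was -0.14 without Penk+/+ replicate 1. F11r, junctional adhesion molecule A, had 9740 to 13746 normalized counts in Penk-/- and 10442 to 14560 in Penk+/+ chimeras. Its mean was 1.01 times that of Penk+/+ chimeras, with a 95% interval of the log2 fold change from -0.28 to 0.30 (limma, adjusted p = 0.989). Without the 2 libraries richest in Pbsn the log2 fold change was 0.12 in place of 0.01.

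The balance between the pore-forming and the sealing class was described in each mouse as the mean log2 level of Cldn2 and Cldn15 minus that of the 5 sealing claudins. It was -0.85, -0.37, -0.49 and -0.71 in Penk-/- replicates 1 to 4 and -1.36, -0.74, -0.55 and -1.10 in Penk+/+ replicates 1 to 4. The Penk-/- mean of -0.60 ± 0.22 (SD) lay 0.33 above the Penk+/+ mean of -0.94 ± 0.36, less than the SD of the Penk+/+ mice, and the groups overlapped. Without the 2 libraries richest in Pbsn the difference was 0.24. Leaving out each mouse in turn, it was lowest, at 0.19, without Penk+/+ replicate 1, and highest, at 0.46, without Penk+/+ replicate 3. No test was made, since the genes were chosen with results known.

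As a share of the summed level per kb of all 17 claudins, Cldn2 and Cldn15 together made 9.34, 12.6, 12.2 and 10.7% in Penk-/- replicates 1 to 4. In Penk+/+ replicates 1 to 4 they made 7.09, 9.76, 10.2 and 8.49%. The mean share was 11.2 ± 1.48% against 8.88 ± 1.39% (SD), and Penk-/- replicate 1 lay within the Penk+/+ range. Cldn3 held 21.4 to 25.0% of the claudin pool in Penk-/- and 23.7 to 27.1% in Penk+/+ chimeras, whereas Cldn7 held 33.5 to 37.8% and 33.7 to 37.1%. Ratios within a library do not depend on its scaling. Of the 10 ratios of a pore-forming to a sealing claudin, 2 did not overlap between the groups, and both had Cldn3 below the line. Cldn3 alone did not overlap either, so these ratios are not separate observations. How often ratios of other gene pairs do not overlap was not counted. Cldn2 over Cldn3 per kb was 0.276, 0.418, 0.391 and 0.3001 in Penk-/- replicates 1 to 4 and 0.175, 0.257, 0.256 and 0.244 in Penk+/+ replicates 1 to 4. Cldn15 over Cldn3 was 0.126 to 0.168 in Penk-/- and 0.0873 to 0.119 in Penk+/+ chimeras. These ratios were singled out after their values were seen.

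**Figure D2:**
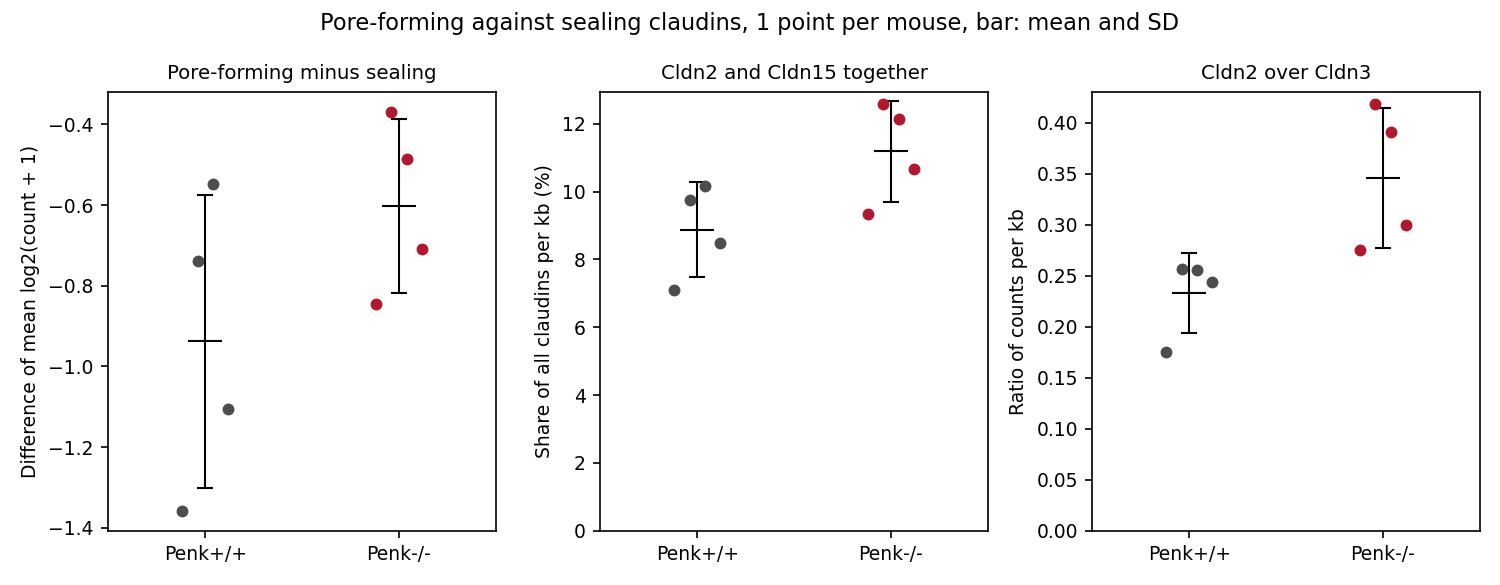
Pore-forming against sealing claudins in each mouse, by genotype of the graft (x axis): the difference of mean log2 levels, the share of Cldn2 and Cldn15 in all claudins per kb (%), and the ratio of Cldn2 to Cldn3 per kb; points are mice, bars the mean and SD of 4 mice. The groups overlapped in the first 2 panels and did not in the ratio, 0.276 to 0.418 against 0.175 to 0.257. Cldn3 alone did not overlap either.

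Markers of the crypt base and of the surface epithelium differed between the biopsies in the same libraries as several members. The score of 8 crypt base markers, as the mean centred log2 level, was -0.05, 0.21, 0.23 and 0.09 in Penk-/- replicates 1 to 4 and -0.26, -0.08, -0.04 and -0.11 in Penk+/+ replicates 1 to 4, a difference of 0.24 in means with overlap of Penk-/- replicate 1. The summed level of these markers was 13485 to 17109 normalized counts in Penk-/- and 12352 to 15428 in Penk+/+ chimeras, and 0 of the 8 were at 0 in any library. At an unadjusted p below 0.05, 3 of the 8 were higher in Penk-/- chimeras, Ascl2, Sox9 and Myc, against 4.3% of all genes. Of the other 5, Axin2, Lgr5, Mki67 and Smoc2 had log2 fold changes of 0.29, 0.21, 0.18 and 0.046 and Rnf43 of -0.09. These markers were named after their values were seen. Ascl2, a transcription factor of crypt base stem cells, had 181 to 211 normalized counts in Penk-/- and 97.1 to 147 in Penk+/+ chimeras, without overlap, as did 2.89% of all genes in this direction (limma, adjusted p = 0.339). The 8 surface colonocyte markers summed to 221081 to 361645 normalized counts in Penk-/- and 288920 to 443877 in Penk+/+ chimeras, with 0 of the 8 at 0 in any library, and 1 of the 8, Saa1, was lower at an unadjusted p below 0.05, against 5.33% of all genes. Of the 8, 6 had a negative log2 fold change, whereas Guca2a and Emp1 had 0.27 and 0.11.

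Over the 8 mice, each member was compared with the score of the surface colonocyte markers minus that of the crypt base markers and with the score of the 10 epithelial markers, 20 relations in all. Cldn7 followed the surface minus crypt score most closely (Pearson r = 0.951, permutation p = 0.000273, adjusted p = 0.00446, Spearman rho = 0.976, permutation p = 0.000397, adjusted p = 0.00794), and r was 0.925 without the 2 mice farthest from the median. Ocln followed it with r = 0.935 (permutation p = 0.000942, adjusted p = 0.00446, rho = 0.905, permutation p = 0.00456, adjusted p = 0.0228) and r = 0.844 without the 2 farthest mice. Tjp1 had r = 0.935 (permutation p = 0.000843, adjusted p = 0.00446, rho = 0.881, permutation p = 0.00724, adjusted p = 0.0241) and r = 0.816 without them. For Cldn3, r was 0.860 (permutation p = 0.00744, adjusted p = 0.0192, rho = 0.738, permutation p = 0.0458, adjusted p = 0.0764), but 0.482 without the 2 farthest mice, so that its strength depends on them. Leaving those mice out also narrows the range of the score. Likewise r was 0.867 for Cldn23 (permutation p = 0.00769, adjusted p = 0.0192, rho = 0.857, permutation p = 0.0107, adjusted p = 0.0306) and 0.522 without the 2 farthest mice.

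Cldn2 ran the other way, with r = -0.783 (permutation p = 0.0227, adjusted p = 0.0412, rho = -0.786, permutation p = 0.0279, adjusted p = 0.0698) and r = -0.877 without the 2 farthest mice. It tended to be higher where the surface minus crypt score was lower. Cldn15 did not pass for either score, with r = -0.377 for the surface minus crypt score (permutation p = 0.356, adjusted p = 0.387, rho = -0.381, permutation p = 0.360, adjusted p = 0.379). F11r was among the 5 members that followed the epithelial score at an adjusted p below 0.05 for r (r = 0.866, permutation p = 0.000893, adjusted p = 0.00446, rho = 0.881, permutation p = 0.00724, adjusted p = 0.0241, r = 0.707 without the 2 farthest mice) and had r = 0.703 with the surface minus crypt score (permutation p = 0.0509, adjusted p = 0.0783, rho = 0.548, permutation p = 0.171, adjusted p = 0.201). The other 4 were Cldn7 with r = 0.934 (permutation p = 0.00134, adjusted p = 0.00446, rho = 0.738, permutation p = 0.0458, adjusted p = 0.0764), Ocln with r = 0.846 (permutation p = 0.00124, adjusted p = 0.00446, rho = 0.905, permutation p = 0.00456, adjusted p = 0.0228), Cldn23 with r = 0.840 (permutation p = 0.0134, adjusted p = 0.0298, rho = 0.952, permutation p = 0.00114, adjusted p = 0.0114) and Cldn3 with r = 0.809 (permutation p = 0.0203, adjusted p = 0.0405, rho = 0.452, permutation p = 0.267, adjusted p = 0.297). Without the 2 mice farthest from the median these were 0.755, 0.695, 0.670 and -0.099, so that the relation of Cldn3 rests on those mice. Cldn4 and Cldn8 had r of 0.560 and 0.580 with the surface minus crypt score (permutation p = 0.148 and 0.130, adjusted p = 0.185 and 0.174, rho = 0.619 and 0.571, permutation p = 0.115 and 0.151, adjusted p = 0.164 and 0.201). The surface minus crypt score differed between the genotypes by -0.45 on average but overlapped, from -0.66 to 0.31 in Penk-/- and from -0.07 to 0.69 in Penk+/+ chimeras. For this reason r was also computed after the mean of each genotype was removed, and without the 2 libraries richest in Pbsn. Both were added after the data were seen and are given with no test. With genotype means removed, r with the surface minus crypt score was 0.941 for Cldn7, 0.920 for Ocln, 0.916 for Tjp1, 0.870 for Cldn23, 0.797 for Cldn3 and -0.668 for Cldn2, whereas Cldn15 had 0.046. Without the 2 libraries it was 0.962, 0.901, 0.922, 0.8004, 0.766 and -0.926 for the same 6 genes and -0.610 for Cldn15.

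**Figure D3:**
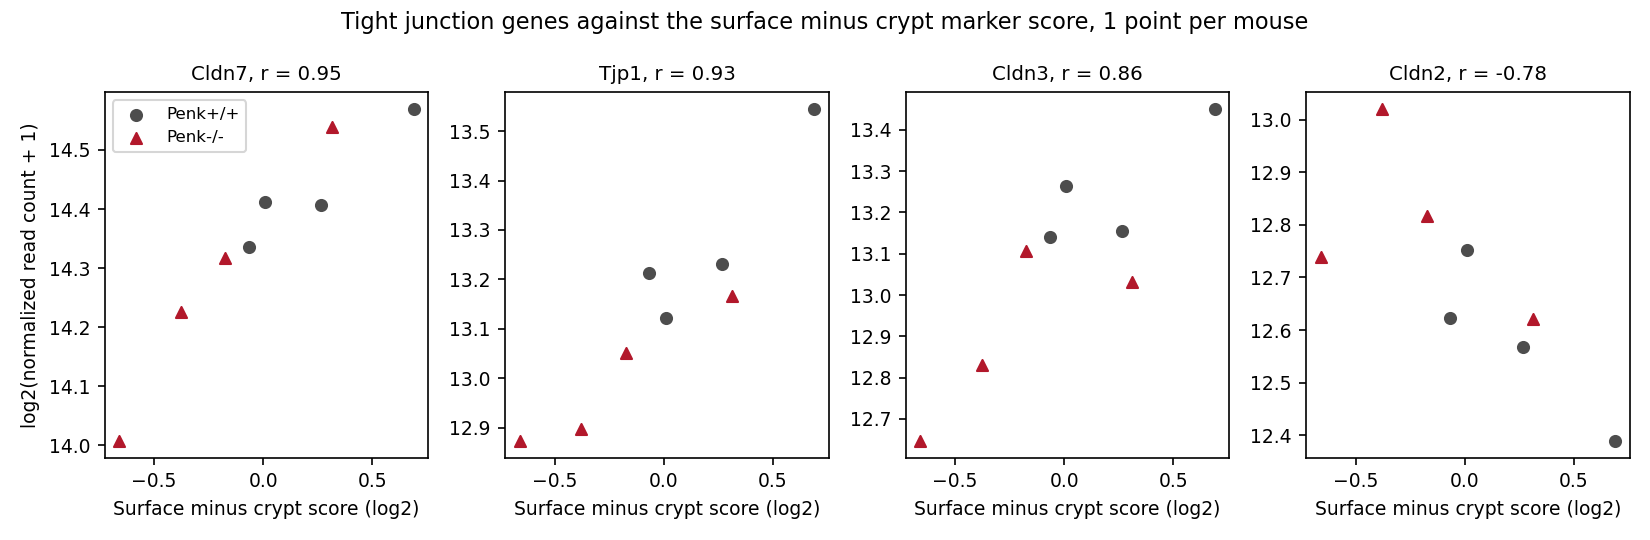
Level of Cldn7, Tjp1, Cldn3 and Cldn2 as log2(normalized count + 1) (y axis) against the surface colonocyte minus crypt base marker score (x axis, log2 units), 1 point per mouse, circles Penk+/+ and triangles Penk-/-. Cldn7, Tjp1 and Cldn3 rise with the score (r = 0.951, 0.935 and 0.860) and Cldn2 declines (r = -0.783), and the highest score belongs to Penk+/+ replicate 1 and the lowest to Penk-/- replicate 3.

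With the crypt base score as a covariate, a fit added after the data were seen, the log2 fold change of Cldn3 was -0.04 (95% interval -0.29 to 0.21), that of Tjp1 0.034 (-0.15 to 0.22) and that of Cldn2 -0.029 (-0.29 to 0.23). Cldn15 was at 0.13 (-0.09 to 0.36). F11r stood at 0.39 (0.10 to 0.67, limma, adjusted p = 0.225) in that fit. With the epithelial score as a covariate instead, Cldn3 was at -0.24 (-0.40 to -0.09, limma, adjusted p = 0.316), Tjp1 at -0.20 (-0.37 to -0.02), Cldn15 at 0.16 (0.01 to 0.32) and Cldn2 at 0.19 (-0.05 to 0.42). The crypt base score differed between the genotypes, so that such a fit removes part of any difference that goes with it.

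**Figure D4:**
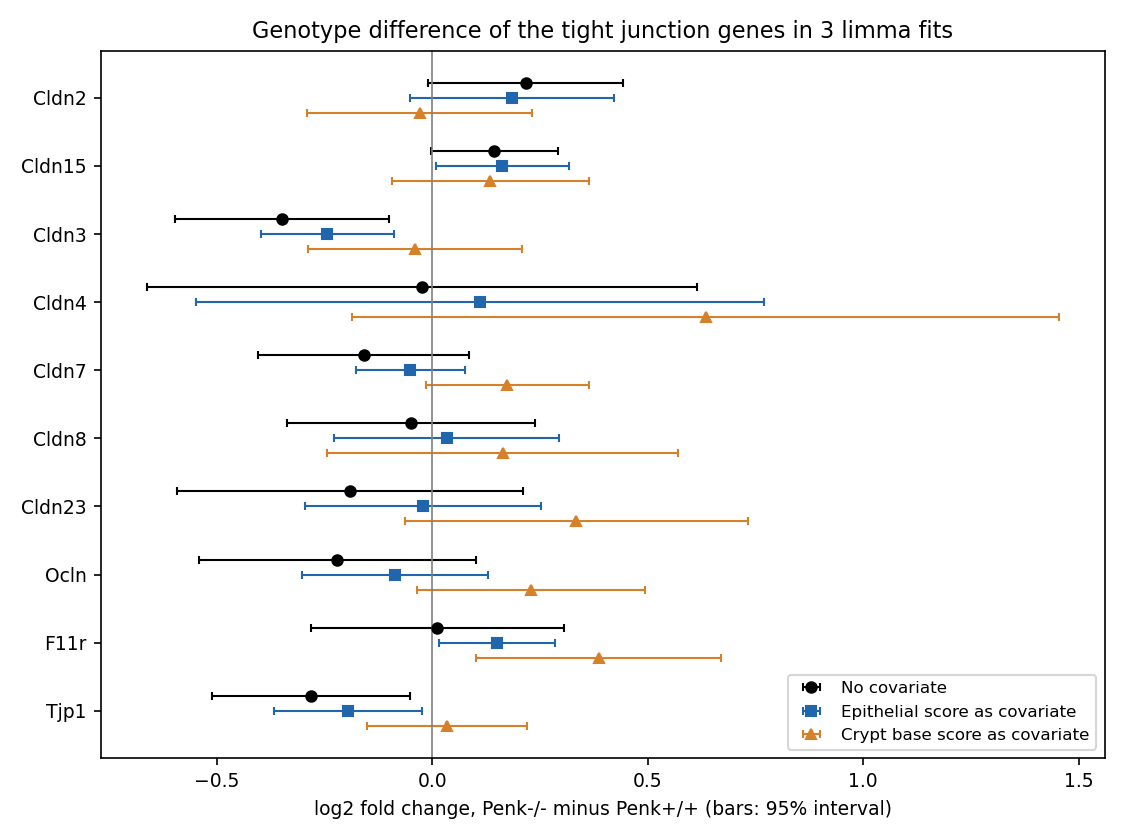
log2 fold change of each tight junction gene, Penk-/- minus Penk+/+ (x axis), in limma fits with no covariate (circles), with the epithelial marker score (squares) and with the crypt base marker score (triangles) as covariate; bars are 95% intervals. Cldn3 stood at -0.35, -0.24 and -0.04 in the 3 fits, and Cldn15 at 0.14, 0.16 and 0.13.

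The rest of the junction complex was examined by lists. Of 17 other claudins, 10 were in the table and 5 passed the filter on low counts. Of these, 0 had an unadjusted p below 0.05, against 5.33% of all genes lower and 4.3% higher. The 5 most abundant per kb were Cldn12, Cldn5, Cldn14, Cldn1 and Cldn20. Cldn12 had 4590 ± 548 against 4466 ± 375 normalized counts (log2 fold change 0.04 ± 0.095, SE, limma, adjusted p = 0.940). Cldn5, the claudin of endothelial cells, had 176 ± 22.5 against 186 ± 29.0. Cldn14 had 134 ± 7.30 against 160 ± 24.9, Cldn1 had 185 ± 92.2 against 152 ± 58.6, and Cldn20 had 3.03 to 7.995 against 3.80 to 6.22 and was under the filter. Cldn17, also under the filter, had 9.45 to 13.7 normalized counts in Penk-/- and 3.07 to 7.72 in Penk+/+ chimeras, and was singled out after its values were seen.

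Of 12 other membrane proteins of the junction, 1 was lower and 0 were higher in Penk-/- chimeras at an unadjusted p below 0.05, against 5.33 and 4.3% of all genes. This was Cxadr, the coxsackie and adenovirus receptor, an adhesion protein of the junction, with 12072, 9554, 7649 and 9847 normalized counts in Penk-/- and 14655, 10797, 11185 and 12058 in Penk+/+ chimeras. The groups overlapped, and the log2 fold change was -0.32 ± 0.14 (SE, limma, adjusted p = 0.506, exact permutation p = 0.114). Ildr1, an angulin of tricellular contacts, had 5831 ± 1299 against 6414 ± 854.

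Of 17 scaffold and polarity genes, 15 had a negative log2 fold change, against 48.9% of all genes, with a median of -0.09 against 0.01. At an unadjusted p below 0.05, 1 was lower and 1 higher, against 5.33 and 4.3% of all genes. Genes of a list vary together between mice, and nothing particular to the list is drawn from its count. Pard3, the polarity scaffold that is recruited to the forming junction, had 2668, 2405, 2345 and 2625 normalized counts in Penk-/- and 3150, 3100, 2930 and 2813 in Penk+/+ chimeras, with no overlap. Its log2 fold change was -0.26 ± 0.065 (SE, limma, p = 0.00317, adjusted p = 0.339, exact permutation p = 0.0286). Prkci, the atypical protein kinase C that binds Pard3, had 4892 to 5655 against 4131 to 5335 normalized counts and a log2 fold change of 0.22 ± 0.090 (SE, limma, adjusted p = 0.489, exact permutation p = 0.0857). Cgnl1, the cingulin-like scaffold, was the other of the 2 scaffold genes that were lower without overlap, against 2.74% of all genes, with 3145 against 3527 normalized counts on average, and was named after its values were seen. Tjp3 and Afdn, the 2 scaffolds with the highest normalized counts, had log2 fold changes of -0.15 and -0.17 (limma, adjusted p = 0.716 and 0.633).

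Of 17 regulators tested, 0 had an unadjusted p below 0.05, against 5.33% of all genes lower and 4.3% higher. Epcam, which binds Cldn7 at the lateral membrane, had 57717 ± 7398 against 65002 ± 4321 normalized counts (log2 fold change -0.18 ± 0.11, SE, limma, adjusted p = 0.640), and Hnf4a, a transcription factor of differentiated enterocytes, had 40447 ± 5009 against 39207 ± 6651. Of 14 genes of adherens junctions and desmosomes, 11 had a negative log2 fold change, against 48.9% of all genes. As above, nothing particular to the list is drawn from its count. At an unadjusted p below 0.05, 0 were lower and 1 was higher, against 5.33 and 4.3% of all genes. The 1 higher gene was Nectin1, an adhesion molecule of adherens junctions, with 280, 314, 305 and 312 normalized counts in Penk-/- and 209, 243, 213 and 261 in Penk+/+ chimeras. Its groups did not overlap, as was so for 2.89% of all genes in this direction. Its log2 fold change was 0.39 ± 0.10 (SE, limma, p = 0.00424, adjusted p = 0.346, exact permutation p = 0.0286). Cdh1, E-cadherin, and Dsp, desmoplakin, had log2 fold changes of -0.20 and -0.17 (limma, adjusted p = 0.641 and 0.704).

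**Figure D5:**
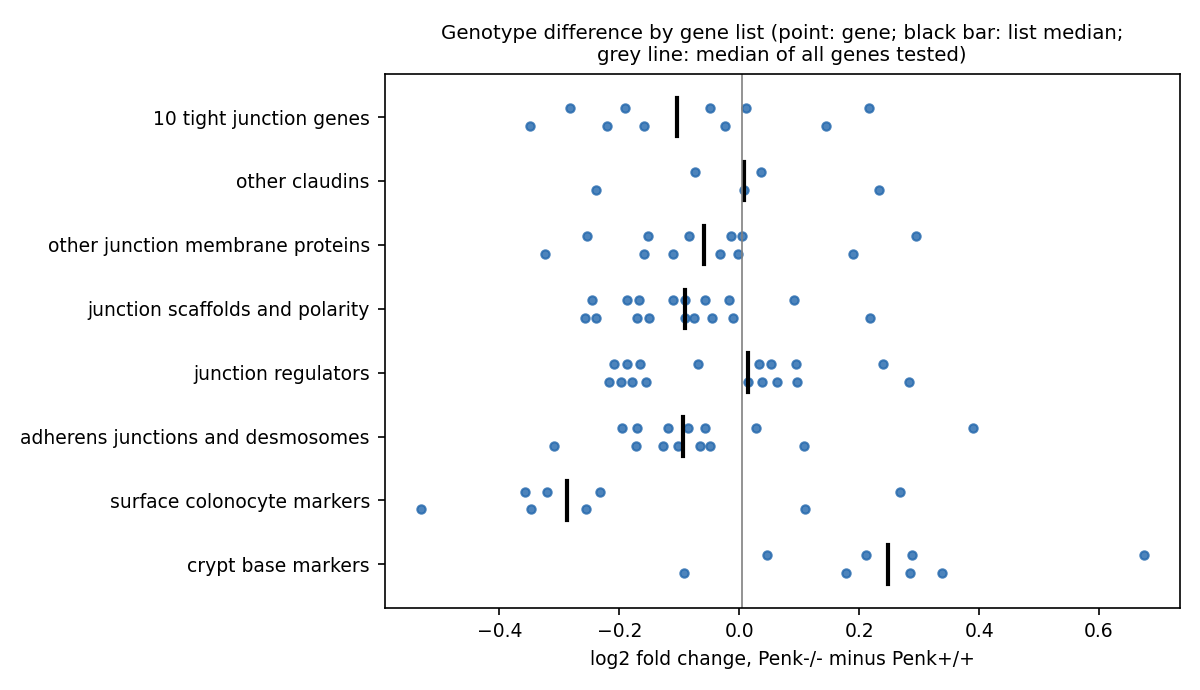
log2 fold change, Penk-/- minus Penk+/+ (x axis), of each gene tested in the tight junction set, 5 other junction lists and 2 marker lists (rows); points are genes, black bars list medians, the grey line the median of all genes tested. Medians lie between -0.10 and 0.01 for the junction sets, against -0.29 for surface colonocyte and 0.25 for crypt base markers.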

How the data were processed

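RNA of colon biopsies from 4 Penk-/- and 4 Penk+/+ chimeric mice, 1 library per mouse, was sequenced from stranded, poly(A)-selected libraries. Per the study's methods the authors aligned and quantified paired-end reads with STAR (2.7.8a) on GRCm39 and used DESeq2 (1.30.0). The deposited values are a signal per gene, read counts divided by a size factor. All values of each library were whole multiples of the step of 1 read, and the reads recovered so were used in alternatives. Of 26008 rows, 25776 identifiers matched the GENCODE M39 annotation, which gave symbols and exon lengths.

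The members, lists and tests were chosen with earlier results of these data known. Genes with a mean of at least 10 were tested as log2(value + 1) with limma (3.58.1; lmFit and eBayes with trend, R 4.3.3), two-sided, with Benjamini-Hochberg adjustment over all 19127 genes and a call at an adjusted p below 0.05. Fold changes are on that log2 scale. Single genes also had an exact two-sided permutation test over the 70 assignments of 4 of 8 mice, whose smallest p is 0.0286. Marker scores are means of centred log2 values, and their relations with members were tested over all pairings, adjusted over 20. The fits were tested on simulated data, only with seeded changes larger than those seen in the members. Alternatives were other pseudocounts, filters and scalings, edgeR (4.0.16) and DESeq2 (1.42.0) on recovered reads, a replicate block, marker scores as covariates, and libraries left out. Genes were named by rule: all members, the 5 most abundant other claudins per kb, and of every other junction list those with an unadjusted p below 0.05, up to 6, and the 2 with the highest normalized counts. No pair of libraries agreed within sampling noise (smallest chi-square 11.2 per degree of freedom). Nothing says that cages or litters were balanced. The p-values of the genotype comparison set a difference of means against the spread between these mice.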

Additional observations from a re-analysis of the deposited data

How the results depend on the processing

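No member reached an adjusted p below 0.05 in any of the 21 alternatives. Over the whole table the count at that threshold was 0, and 1 with quantile normalization, 1 with the replicate block, 1 with the crypt base score as a covariate, 205 with DESeq2 and 0 to 6 with each mouse left out, the 6 without Penk-/- replicate 1. At an unadjusted p below 0.05, 4 members were lower with the replicate block and 1 was higher, against 2 and 0 without it. The block raised the share over all genes to 8.28% lower and 7.08% higher, from 5.33 and 4.3%. Same-numbered samples did not deviate together (r = 0.145, -0.044, -0.321 and -0.162), and no sample correlated best with its own number.

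Cldn3 and Cldn15 kept their sign in all 21 alternatives, Cldn3 between -0.42 and -0.04 and Cldn15 between 0.11 and 0.18. With the crypt base score as a covariate the sign turned for Cldn2 (-0.029), Cldn4 (0.63), Cldn7 (0.17), Cldn8 (0.16), Cldn23 (0.33), Ocln (0.23) and Tjp1 (0.034), and the cause was not tested. Cldn4 also turned with the epithelial score (0.11) and without the 2 libraries richest in Pbsn (0.20), and ranged from -0.28 to 0.19 with each mouse left out. Cldn8 turned with quantile normalization (0.032), with the epithelial score (0.034) and without those libraries (0.085), and ranged from -0.16 to 0.031 with each mouse left out. F11r ranged from -0.061 to 0.12 with each mouse left out. With genotype means removed, r of Cldn15 turned positive for the surface minus crypt score (0.046) and for the epithelial score (0.33). The difference between pore-forming and sealing claudins stayed positive in 14 of 14 alternatives. None of these had a marker score as a covariate. Since the balance is a difference of means of the member levels, the fits of the members give its sign there. It stayed positive with the epithelial score. With the crypt base score the balance turned negative, as Cldn2 turned negative and Cldn4, Cldn7, Cldn8 and Cldn23 turned positive. That fit was added after the data were seen.

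With 4 mice per genotype, the 95% interval of the log2 fold change was narrowest for Cldn15 (-0.00 to 0.29) and widest for Cldn4 (-0.66 to 0.61).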
